A study of Mus musculus with 6 samples.

Results

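ESRRB binding was followed at 7 genes that encode nuclear receptor coregulators: Nrip1, Ncoa1, Ncoa2, Ncoa3, Ncor1, Ppargc1a and Ppargc1b. ESRRB ChIP-seq, in which DNA bound by a protein is recovered with an antibody and sequenced, was made from E14 cells, an established mouse embryonic stem cell line. The cells were grown in N2B27 medium with 2iL, which is 3 µM CHIR99021 (a GSK3 inhibitor), 1 µM PD0325901 (a MEK inhibitor) and the cytokine LIF, or were taken 48 h or 96 h after 2iL was replaced with N2B27 medium alone. Each of the 3 conditions had 1 ESRRB library without a replicate, so values compare libraries and no test between conditions was possible. A region is a unique interval of the authors' peak list, and a region was assigned to a gene when a summit lay within 100 kb of the gene span in mm10. The 2iL list gave 34 of its 13767 regions, the 48 h list 25 of 10970 and the 96 h list 22 of 7018. Overlapping regions of the 3 lists were joined into 42 merged regions near the 7 genes, of 18634 in all.

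Nuclear receptors such as ESRRB act on transcription through coregulator proteins that do not bind DNA themselves. The p160 coactivators NCOA1, NCOA2 and NCOA3 bind the receptors and bring in histone acetyltransferases, while NCOR1 and NRIP1 are corepressors that act with histone deacetylases. PPARGC1A and PPARGC1B are coactivators that work with estrogen-related receptors at mitochondrial genes, and NCOA3 is known as a coactivator of ESRRB in embryonic stem cells. The comparison asks where ESRRB itself was found near the genes of its own partners, and whether the same places were called after 2iL withdrawal.

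Few promoters overall overlapped an ESRRB region, and none of the promoter windows examined at these genes did. The RefSeq promoter table (GRCm38.p6, the assembly of mm10) held 6 starts of 4 of the genes (Nrip1, Ncoa1, Ncor1 and Ppargc1a), each as a window from 250 bases before to 50 bases after the start. None of these 6 windows was overlapped by an ESRRB region in any library, where over all promoter windows 5.19%, 3.61% and 2.72% were overlapped in 2iL, at 48 h and at 96 h, so a count of 0 of 6 is near the background. The 250 bases before 3 of the starts are shown for the gene with the strongest regions (Nrip1), the gene whose start lay nearest to a region (Ncoa1) and the gene without any region (Ppargc1a). A start of Sulf2, a neighbour of Ncoa3, is shown because its window was overlapped by a region in all 3 libraries. All 4 are on the minus strand and are written 5′ to 3′, ending at the base before the start, with CG dinucleotides in capitals.
Nrip1, chr16:76373828-76374077: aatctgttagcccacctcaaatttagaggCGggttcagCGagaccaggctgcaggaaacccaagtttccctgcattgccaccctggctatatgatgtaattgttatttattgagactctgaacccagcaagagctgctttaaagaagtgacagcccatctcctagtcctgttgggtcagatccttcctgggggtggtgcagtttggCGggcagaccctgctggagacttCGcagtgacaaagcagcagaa
Ncoa1, chr12:4477183-4477432: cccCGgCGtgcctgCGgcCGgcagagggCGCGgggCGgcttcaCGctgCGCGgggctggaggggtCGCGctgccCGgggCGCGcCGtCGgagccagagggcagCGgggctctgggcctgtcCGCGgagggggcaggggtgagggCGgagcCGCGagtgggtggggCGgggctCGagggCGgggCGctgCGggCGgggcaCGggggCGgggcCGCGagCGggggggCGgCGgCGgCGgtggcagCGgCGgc
Ppargc1a, chr5:51567726-51567975: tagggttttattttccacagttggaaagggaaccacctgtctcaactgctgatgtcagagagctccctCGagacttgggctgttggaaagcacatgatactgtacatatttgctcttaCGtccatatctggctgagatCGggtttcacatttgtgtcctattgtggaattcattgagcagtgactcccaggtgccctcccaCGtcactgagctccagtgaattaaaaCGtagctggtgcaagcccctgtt
Sulf2, chr2:166155684-166155933: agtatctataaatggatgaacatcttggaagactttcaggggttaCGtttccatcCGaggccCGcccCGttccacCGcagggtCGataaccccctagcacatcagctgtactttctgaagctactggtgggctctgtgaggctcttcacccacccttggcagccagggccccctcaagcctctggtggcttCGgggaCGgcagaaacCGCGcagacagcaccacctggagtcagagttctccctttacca
The Ncoa1 stretch held 40 CG dinucleotides and the Nrip1, Ppargc1a and Sulf2 stretches 4, 5 and 10, against a median of 6 over 32851 promoter windows. The other Nrip1 start in the table (76373049), which lies nearer to the regions and is the one used for distances, held 32 and is not shown. The Ncor1 starts held 2 and 34. The estrogen-related receptor element TCAAGGTCA and its core AAGGTCA, which lies inside it, were searched on both strands of the whole windows. Neither was found in the 6 windows of the coregulator genes or in the Sulf2 window. Over all promoter windows 0.423% held the full element and 4.72% the core. Among windows overlapped by a 2iL region 9.92% held the core, and among those overlapped by a 48 h or a 96 h region 11.2% and 10.9% did. A window without a match says only that these letters are not in it.

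Values at a region are given as the authors' fold enrichment, in which the summit's reads are divided by a local background. The reads and the background behind each fold were recovered from the fold and its p-value. Whether that background was taken from the library made without antibody or from the ESRRB library itself is not stated in the labels. The lowest background found in a library, here called its floor, was 5.045, 8.092 and 5.845 reads for 2iL, 48 h and 96 h. Over all summits the median read number was 39, 55 and 38. Total read numbers were not used here. The weakest 5% of regions had folds of up to 3.47, 2.91 and 2.81 in the same order, so a region that was not called may have held ESRRB below those levels.

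Counts differed widely among the 7 genes. In the order 2iL, 48 h and 96 h, Ncoa3 had 10, 8 and 10 regions. Ncoa2 had 8, 5 and 4, Ncoa1 had 5, 7 and 3, and Ncor1 had 5, 3 and 3. Nrip1 had 4, 2 and 2, Ppargc1b had 2, 0 and 0, and Ppargc1a had none. The 2 Nrip1 regions of 96 h fell in 1 merged region, as did 2 of the Ncoa1 regions in each library. With this window Ncoa3 was the gene with most regions in each library. With a 10 kb window, or with regions counted only for their nearest protein-coding gene, Ncoa3 had 3 in each library, fewer than the 4 of Nrip1 in 2iL and the 4 of Ncoa1 at 48 h. Ncoa1 was the gene with more regions at 48 h than in 2iL. A region was near 6 of the 7 genes in 2iL and near 5 at each later time, where the share over 21887 protein-coding genes was 69.8%, 64.7% and 54%. Of the 6 genes with a 2iL region, 5 had fewer at 48 h and 5 had fewer at 96 h. Over all protein-coding genes with a 2iL region 55.8% had fewer at 48 h and 74.4% had fewer at 96 h, and 18.1% and 6.7% had more.

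**Figure D1:**
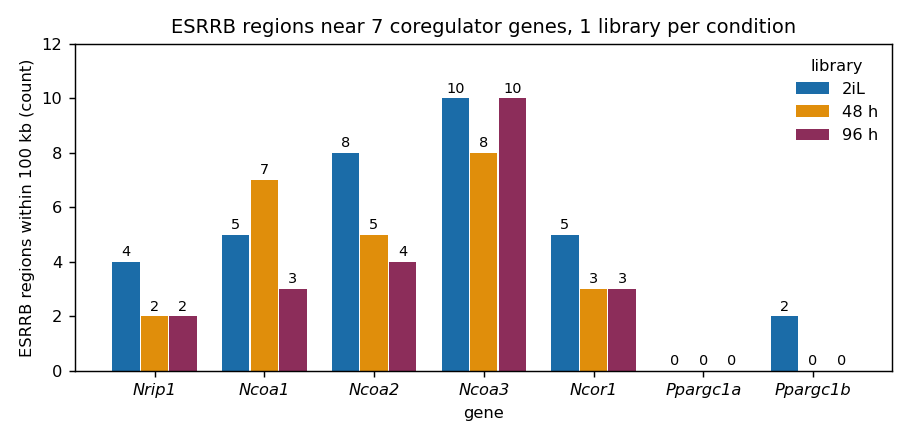
Number of ESRRB regions with a summit within 100 kb of each gene span (vertical axis, count) for 7 coregulator genes, with 1 bar for each library. Ncoa3 has the highest bars, at 10, 8 and 10, and Ppargc1a has 0 in each library.

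Among the corepressor genes, Nrip1 held the strongest ESRRB binding of the group, and all 4 of its merged regions lay inside the gene. The leading region (chromosome 16, 76319010 to 76323075 merged) consisted of a pair of strong summits 1926, 1882 and 1911 bp apart in the 3 libraries. In the same order of libraries the stronger summit had folds of 39.4, 32.8 and 36.2, from 294, 416 and 347 reads. It ranked 4 of 13767, 5 of 10970 and 5 of 7018 regions by fold. The weaker summit had folds of 20.3, 21.8 and 26.97 from 194, 381 and 294 reads. At 96 h the pair was called as separate intervals. The stronger summit lay 51.2 kb downstream of the nearest Nrip1 start of the promoter table, and its position moved by 14 bp or less between libraries.

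The other Nrip1 regions were weaker and were not called at every time. The region beside the leading pair (76323125 to 76324290) had a fold of 4.99 in 2iL and 7.06 at 48 h and was not called at 96 h. A region 40.7 kb downstream of the start (76332026 to 76332576) had a fold of 10.2 from 75 reads in 2iL, and a region 18.6 kb downstream (76353754 to 76355077) had a fold of 9.86 from 100 reads. Both were among the strongest 20% of 2iL regions, and neither was called at 48 h or 96 h. Over the whole 2iL list, 77.5% of the strongest 20% overlapped a 48 h region and 62.2% a 96 h region.

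Ncor1, which encodes the scaffold of a deacetylase complex, had 6 merged regions, of which 2 lay inside the gene and 3 inside its neighbour Pigl. The strongest inside the gene (chromosome 11, 62427977 to 62429553) lay 9.42 kb downstream of the nearest start and was called in all 3 libraries. Its folds were 9.96, 10.6 and 8.62, from 144, 126 and 58 reads over backgrounds of 13.6, 11 and 5.84 reads. The fold thus stayed near its 2iL value, while the reads as multiples of each library's floor were 28.5, 15.6 and 9.92. A region 53.8 kb from the gene on its 5′ side (62510333 to 62512886) had folds of 7.50, 7.10 and 15.4. Its reads were 122, 231 and 121, and its background was 15.4, 31.7 and 6.94 reads. The fold at 96 h was the highest of the 3, the background the lowest, and the read number like that of 2iL. The part of the background in this fold was not tested.

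The remaining Ncor1 regions differed between times. A region 37.5 kb from the gene on its 5′ side (62493370 to 62495327) was not called in 2iL and had folds of 5.43 at 48 h and 5.26 at 96 h, from 119 and 67 reads. A region 51.6 kb away on the same side (62507894 to 62509384) had a fold of 7.93 from 90 reads in 2iL and was not called later. The region 33.9 kb past the 3′ end (62281407 to 62281969, fold 5.13 in 2iL alone) overlapped the start windows of the neighbours Ttc19 and Zswim7. A weak region inside the gene (fold 3.61) was also called in 2iL alone.

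Among the coactivator genes, Ncoa3 had the most regions called in all 3 libraries, 7 of its 12 merged regions. Among its 10 regions in 2iL, 8 overlapped a 48 h region (80%, exact 95% interval 44.4 to 97.5) and 7 a 96 h region (70%, 34.8 to 93.3), where the shares over the whole 2iL list were 50.7% and 35%. At least 10 regions at 96 h were found near 10 of 21887 protein-coding genes (0.0457%), Ncoa3 among them. That count for Ncoa3 was 3 with a 10 kb window or by nearest gene only, and how many genes had as many then was not counted. In 2iL 0.85% of genes had at least 10 regions, and at 48 h 1.06% had at least 8. The 10 regions of 96 h include a pair that fell in 1 merged region, and the weaker of that pair had a fold of 1.56 from 15 reads and a deposited −log10 q of 0. With a −log10 q of at least 5 required, Ncoa3 had 10 regions in 2iL and 9 at 96 h. Its place among the genes with at least 10, and its equal counts in 2iL and at 96 h, thus rest on that weak interval.

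The strands of Ncoa2, Ncoa3 and Ppargc1b were not read from the tables, so before and after their spans follow the coordinates. The strongest Ncoa3 region lay 11.2 kb before the span (chromosome 2, 165979995 to 165982487). Its folds were 14.7, 18.2 and 30.1, ranking 480, 98 and 11 in lists of 13767, 10970 and 7018 regions. The reads were 160, 306 and 233, the background 9.94, 15.8 and 6.78 reads, and the reads as multiples of the floor 31.7, 37.8 and 39.9. Its fold at 96 h was 2.04 times that of 2iL, a ratio that 1.58% of shared 2iL regions reached, and its reads over the floor were 1.26 times those of 2iL. The summit moved by 20 bp or less from 2iL. The nearest protein-coding gene to it was LOC115489489, whose span overlaps the Ncoa3 span.

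There were 3 regions inside Ncoa3, and all were called in each library. At 166001540 to 166003391 the folds were 8.27, 8.65 and 7.54, from 49, 103 and 51 reads. At 166007952 to 166010409 they were 7.58, 10.5 and 9.20, from 61, 147 and 72 reads. At 166020755 to 166023100 they were 10.4, 6.49 and 4.99, from 83, 77 and 47 reads, so this region was the strongest inside the gene in 2iL and the weakest there at both later times. Its highest summit at 96 h lay 564 bp from that of 2iL. The 96 h summit nearest the 2iL position (166022421) had a fold of 4.57 from 49 reads. The strongest Ncoa3 region not called in 2iL lay 16.2 kb before the span (165975952 to 165977172) and had a fold of 4.24 at 96 h from 28 reads. Another 4 merged regions lay nearest Sulf2, which encodes a heparan sulfate sulfatase, at folds of 3.66 to 6.54 for their highest summits in each library.

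Most regions assigned to Ncoa2 lay nearer to another gene. Of its 11 merged regions, 8 were nearest Prdm14, a regulator of naive pluripotency that lies beside Ncoa2, and 1 lay inside Ncoa2. The strongest (chromosome 1, 13051942 to 13052899), 86.8 kb before the span and nearest Slco5a1, had a fold of 21.8 in 2iL, rank 63 of 13767, and 7.36 at 48 h, and was not called at 96 h. The reads were 131 in 2iL and 128 at 48 h, over backgrounds of 5.05 and 16.5 reads. The fold at 48 h was 0.337 times that of 2iL, a ratio that 1.66% of shared 2iL regions had or fell below, and the reads over the floor were 0.609 times those of 2iL. A region 11 kb before the span and 959 bp from Prdm14 (13127433 to 13128758) was called in each library, with folds of 6.37, 6.80 and 6.52. The region inside Ncoa2 (13252797 to 13253806) was called at 48 h alone with a fold of 4.23. A region called at 96 h alone (13100518 to 13101341), nearest Prdm14, had a fold of 6.43 from 43 reads.

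Ncoa1 had its strongest binding 67.5 kb past its 3′ end, inside the neighbour Adcy3, an adenylyl cyclase gene (chromosome 12, 4177492 to 4180328 merged). As at Nrip1 there was a pair of summits, 1797, 1798 and 1795 bp apart in the 3 libraries. The first summit had folds of 7.47, 8.65 and 8.33 from 58, 109 and 68 reads. The second had folds of 13.3, 10.3 and 5.96 from 108, 173 and 76 reads. By reads the second was the higher in each library, and by fold the first was the higher at 96 h, where the backgrounds were 7.29 reads at the first and 11.9 at the second. Inside the gene a region 644 bp downstream of the Ncoa1 start in 2iL (4475439 to 4477006) had folds of 4.45 in 2iL and 4.39 at 48 h and was not called at 96 h. A region 84.8 kb downstream of the start (4391234 to 4393257) had a fold of 4.94 at 48 h and 3.25 at 96 h and was not called in 2iL. A region of 2iL alone (4355848 to 4356667) had a fold of 5.45, and the region 95 kb from the gene on its 5′ side (4571732 to 4572915), nearest Itsn2, had folds of 3.61 in 2iL and 5.90 at 48 h.

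**Figure D2:**
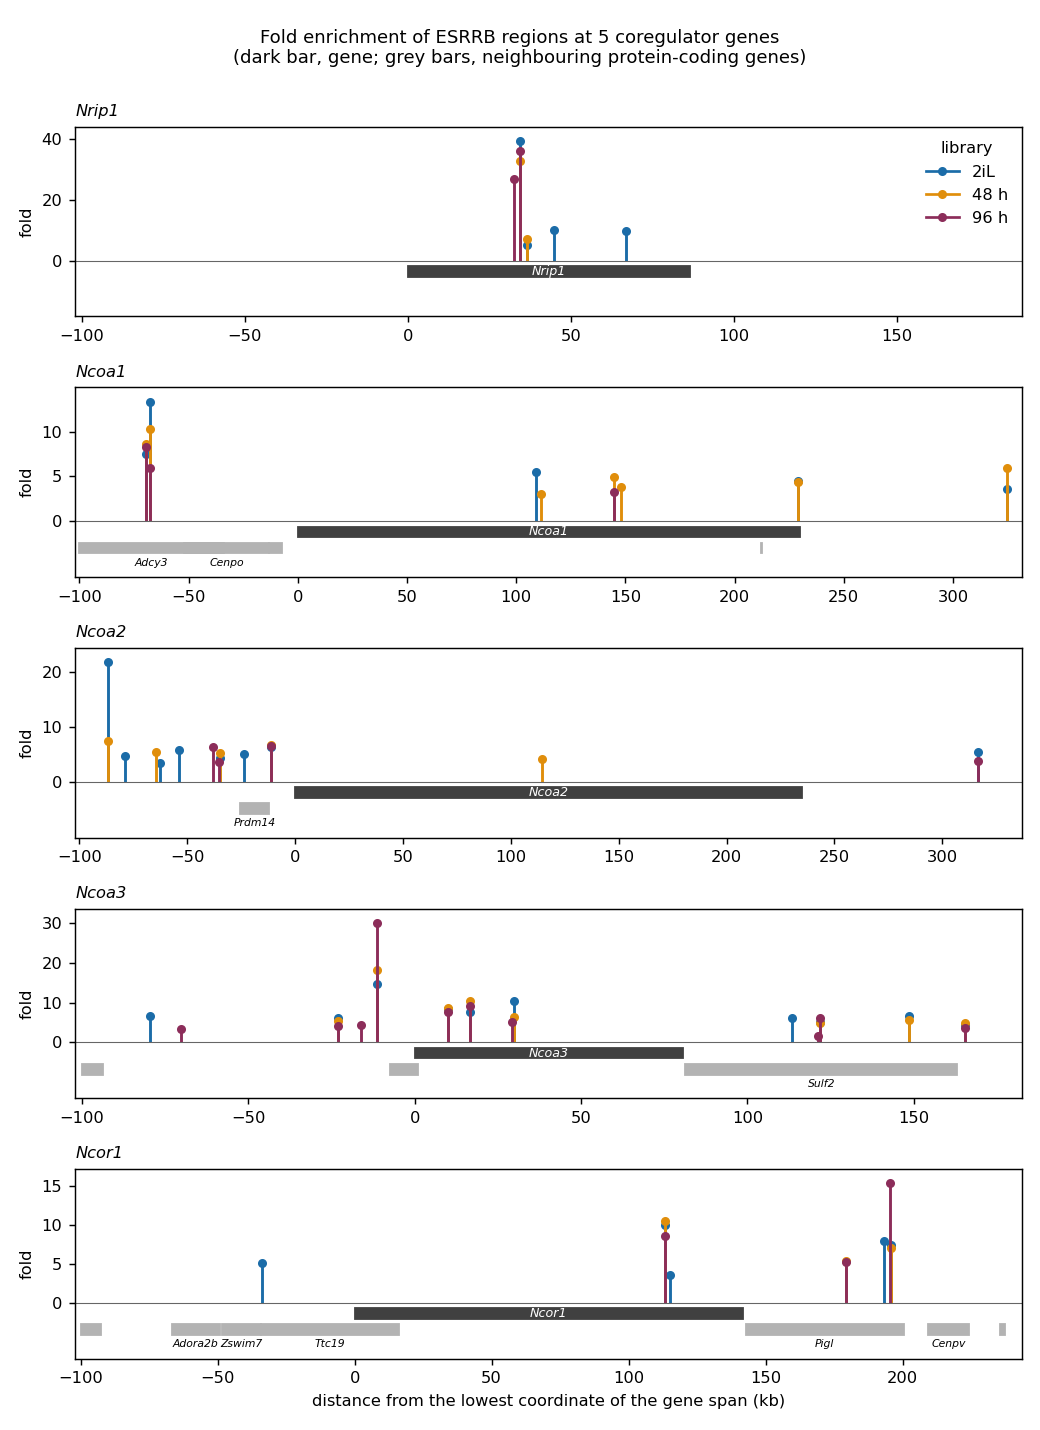
Fold enrichment (vertical axis, ratio) of the highest summit of each ESRRB region against distance from the lowest coordinate of the gene span in kb (horizontal axis) at 5 genes, with 1 colour for each library, the gene as a dark bar and neighbouring protein-coding genes as grey bars. The leading region inside Nrip1 and the region 11.2 kb before Ncoa3 reach the highest folds, and most regions of Ncoa2 lie on the side of Prdm14.

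The genes of the Ppargc1 coactivators, which switch on oxidative metabolism in tissues such as muscle and brown fat, had few or no called ESRRB regions. No region lay within 100 kb of the Ppargc1a span (chromosome 5, 51454249 to 52115853), a stretch of 861.6 kb with its window. The nearest region lay 119 kb away in 2iL (fold 3.5), 499 kb away at 48 h and 1151362 bp away at 96 h. Of 134 other protein-coding genes with a span at least as long, 4 (2.99%) had no region in any library. Over protein-coding genes of any length, 76.6% had a region in at least 1 library. Ppargc1b (chromosome 18, 61291445 to 61400756) had 2 regions in 2iL, where 49.6% of protein-coding genes had at least 2. Both had folds below the 2iL median of 5.88. That at 61416232 to 61416979, 16 kb after the span, had a fold of 5.34 from 39 reads, and that at 61212932 to 61213739, 78.2 kb before it and nearest Slc26a2, had a fold of 4.31 from 36 reads. Neither was called later, and the nearest region at either later time lay 191 kb away, beside Csnk1a1.

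Across the 7 genes, the shares of 2iL regions called later had intervals that included the shares over all 2iL regions. Among the 34 of 2iL, 19 (55.9%, exact 95% interval 37.9 to 72.8) overlapped a 48 h region, where 50.7% of all 2iL regions did. At 96 h the count was 15 (44.1%, 27.2 to 62.1), where 35% of all did. No region was called at either later time for 14 (41.2%, 24.6 to 59.3), where the share over all was 45.6%. In the other direction, 19 of 25 regions at 48 h (76%, 54.9 to 90.6) and 17 of 22 at 96 h (77.3%, 54.6 to 92.2) were called in 2iL, where the shares over the lists were 63.5% and 69.5%. Of the 22 at 96 h, 18 (81.8%, 59.7 to 94.8) were called at 48 h, where 78.3% of all were. Each interval, which covers counting error only, includes the share over all regions. The intervals treat as separate the pairs of regions that fell in 1 merged region, near Ncoa1 in each library and near Nrip1 and Ncoa3 at 96 h. Among the merged regions, 13 of 42 (31%) were called in all 3 libraries and 14 (33.3%) in 2iL alone, and over all merged regions the shares were 22.9% and 33.7%. Ncoa3 gave 7 of the 13.

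**Figure D3:**
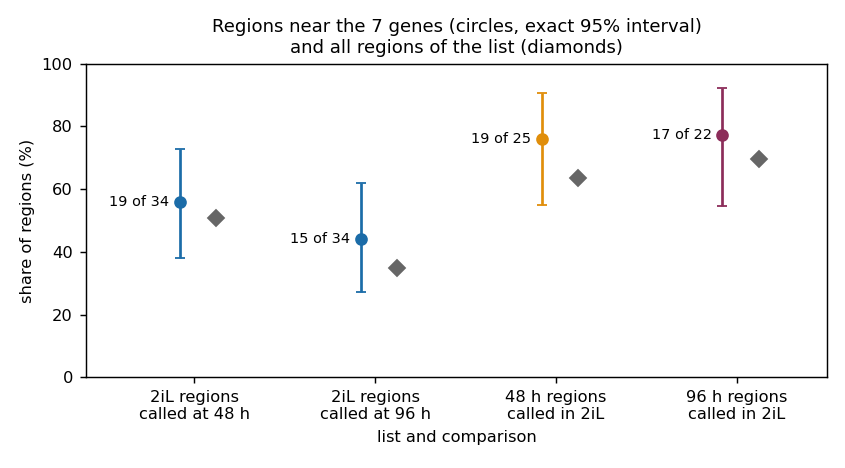
Share of regions (vertical axis, %) that overlapped a region of another list, for regions near the 7 genes (circles, with exact 95% intervals and counts) and for all regions of the list (diamonds). The circles lie at 55.9%, 44.1%, 76% and 77.3%, and each interval includes its diamond.

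Strength, width and summit position were set beside those of all regions. In 2iL 8 of 34 (23.5%, exact 95% interval 10.7 to 41.2) belonged to the strongest 20% by fold. Of these 8, 6 overlapped a 48 h region (77.5% over all) and 5 a 96 h region (62.2% over all). Of the other 26, 13 overlapped a 48 h region (44% over all) and 10 a 96 h region (28.2% over all). The share called later was higher for the stronger regions both near these genes and over the list. At 48 h it was 7 of 25 (28%, 12.1 to 49.4), and all 7 were called in the other 2 libraries. At 96 h it was 8 of 22 (36.4%, 17.2 to 59.3, with 20.1% over all), and all 8 were called in the other 2. Over the lists 89.9% of the strongest 48 h regions overlapped a 2iL region and 88.4% a 96 h region. For the strongest 96 h regions the shares were 92.3% in 2iL and 98.5% at 48 h. The median fold was 6.17, 5.90 and 6.05 near the 7 genes and 5.88, 4.98 and 4.82 over all regions. The median width was 889.5, 1518 and 1294 bp near the 7 genes and 993, 979 and 878 bp over all. At both later times the median near these genes was thus above that of the list, though some single regions were narrower. The highest summit lay within 50 bp of its 2iL position in 15 of 19 shared regions at 48 h (78.9%, with 72.9% over all) and in 9 of 15 at 96 h (60%, with 68.9% over all). Of the 42 merged regions 15 lay inside a coregulator gene, and for 17 the coregulator gene was the nearest protein-coding gene, counts for which no value over all regions was made.

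Folds that differed by 2 times or more from 2iL were few. The local background differed widely at some of these regions and less at others. At 48 h 10 of 19 shared 2iL regions had a higher fold than in 2iL (33.2% over all), none had 2 times the 2iL fold (2.31% over all), and 1 had at most 1/2 of it (10.5% over all), the Ncoa2 region at 86.8 kb. At 96 h 6 of 15 had a higher fold (26.5% over all). Of these 15, 2 had at least 2 times the 2iL fold (1.7% over all), the Ncoa3 region at 11.2 kb and the Ncor1 region at 53.8 kb. Another 2 had at most 1/2 (15.7% over all). The first was the region inside Ncoa3 at 166020755, with 83 and 47 reads over backgrounds of 7.04 and 8.61 in 2iL and at 96 h. The second was the interval of the second Ncoa1 summit inside Adcy3, with 108 and 76 reads over backgrounds of 7.18 and 11.9. When reads at the summit were taken as multiples of the floor, no shared region reached 2 times its 2iL value at either time (2.23% and 1.1% over all). With that measure none had at most 1/2 at 48 h (14.6% over all) and 3 did at 96 h (26.9% over all). This measure was added after the values were seen, and what moved the background was not tested.

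**Figure D4:**
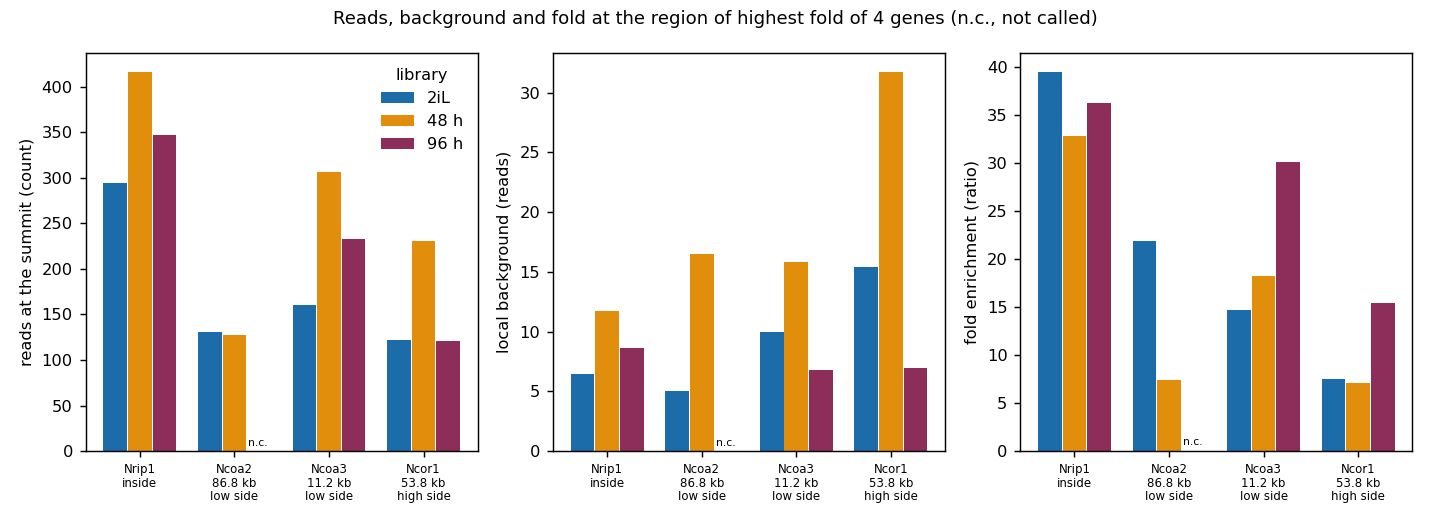
Reads at the summit (left, count), local background (middle, reads) and fold enrichment (right, ratio) at the merged region of highest fold near Nrip1, Ncoa2, Ncoa3 and Ncor1, with 1 bar for each library and low and high side for the side of the gene span by coordinate. At Ncoa2 the 2iL and 48 h libraries have 131 and 128 reads and backgrounds of 5.05 and 16.5, and at Ncor1 the 2iL and 96 h libraries have 122 and 121 reads and backgrounds of 15.4 and 6.94.

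A further 26 coregulator genes were examined in the same way, and ESRRB regions lay near most of them. With the same window, 25, 24 and 22 of the 26 (96.2%, 92.3% and 84.6%) had a region in the 3 libraries, where over all protein-coding genes it was 69.8%, 64.7% and 54%. These genes were chosen with earlier results of these data known, and the window takes in regions that lie nearer to another gene. There were medians of 4, 3 and 2 regions a gene, where the median over all protein-coding genes was 1 in each library. Of the 25 genes with a 2iL region, 15 (60%) had fewer and 2 (8%) more at 48 h, where 55.8% and 18.1% of all genes with a 2iL region did. At 96 h 21 (84%) had fewer and 3 (12%) more, where 74.4% and 6.7% of all did. Gps2, a subunit of the NCOR complex, had no region in any library. Tbl1xr1, another subunit of that complex, had 8, 8 and 6 regions, and its strongest, inside the gene, had a fold of 24.8 at 96 h.

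Among the 8 further genes of highest fold, the strongest region lay nearer to another protein-coding gene for 4. Ncoa7 had 4, 4 and 2 regions and a highest fold of 31.7 at 48 h, in a region nearest Hey2. The highest fold was 18.5 at 48 h for Nr0b1, which encodes a receptor-like repressor of the embryonic stem cell network, in a region just outside the gene. For Trim24 it was 16.8 in 2iL, and for Crebbp, an acetyltransferase gene, 14.3 in 2iL in a region nearest Trap1. Med1, a Mediator subunit that binds receptors, had 13.6 at 48 h in a region inside the gene. Smarca4, the ATPase of a chromatin remodelling complex, had 13.2 in 2iL in a region nearest Spc24. Nr0b2 had 13.2 at 48 h in a region nearest Gm42323.

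No other protein-coding gene had exactly the counts of Ncoa3 in the 3 libraries. By the sum of absolute differences over the 3 counts, with ties settled by the closest highest 2iL fold, the most alike of 21746 genes over 1 Mb from any of the 7 were Sox5 (9, 9 and 9 regions), Ryr2 (10, 8 and 7) and Atp1b1 (9, 9 and 9), each with a difference of 3. Their highest 2iL folds were 14.8, 13.9 and 15.6, and that of Ncoa3 was 14.7.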

How the data were processed

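ESRRB ChIP-seq of 3 conditions was used, with 1 antibody library each. The 3 libraries made without antibody were not used here. Per the labels, cells were crosslinked in 1% formaldehyde and each library took 10 ng of DNA. Reads were demultiplexed with bcl2fastq 2.20.0.422, and BWA, SAMtools, Picard and MACS2 were used with build mm10, per the submitters' processing notes. What each tool did, the other versions and the threshold for calling are not stated in the labels or notes used here. The deposited lists hold, for each summit, the fold enrichment as a ratio to local background, a p-value and a q-value as −log10, a score capped at 1000 and the summit offset in bp.

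Regions are unique intervals with the values of their highest summit, and any summit could place a region near a gene. Gene spans came from RefSeq for GRCm38.p6, and all 7 genes and all 26 further genes matched. Lists were compared by overlap of at least 1 bp with own code, checked against bedtools 2.31.1 with equal counts, in Python 3.11.15 with SciPy 1.17.1. Reads and background were solved from fold, with a pseudocount of 1 on both, and Poisson p, which gave whole reads within 0.05 for 100% of summits. Code was tested on simulated lists. Exact intervals are Clopper-Pearson. No p-value was computed, since each condition had 1 library.

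Regions were named by rule: near each gene the 3 of highest fold, the strongest not called in 2iL, those in the strongest 20% of a library and, for genes with 4 or fewer, all. Some others are also described and were chosen after their values were seen. Of the further genes, those without a region and the 8 of highest fold were named by rule. The members and lists were chosen with earlier results of these data known.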

Additional observations from a re-analysis of the deposited data

How the results depend on the processing

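The counts of regions depended on the window and the assignment. The 34, 25 and 22 regions became 20 in 2iL with a 50 kb window, and 11, 11 and 7 with a 10 kb window. When a region counted only for its nearest protein-coding gene they were 13, 11 and 8. With each list shortened to its 7018 regions of highest fold, the counts were 18, 22 and 22 in the same order and no longer fell from 2iL. With lists so shortened the share of 96 h regions called in 2iL was 54.5% in place of 77.3%. A shorter 2iL list holds fewer regions to overlap, and no value over all 96 h regions was set beside this share. That share under its other alternatives, and the shares of 2iL regions called at 48 h and at 96 h and of 48 h regions called in 2iL under all of theirs, stayed inside their exact 95% intervals, including a −log10 q of at least 5, placement by the highest summit alone and a required overlap of 50% of each region. No alternative was run for the other shares printed with intervals. Of 126 alternative counts for single genes, 37 differed by over 1.5 times from the main count. With reads over the floor in place of fold, which was chosen after seeing the data, the 1 region at 48 h with at most 1/2 of its 2iL value became 0, and the 2 at 96 h with at least 2 times became 0. No paired analysis was possible because each condition had 1 library. The background floors differed by up to 1.6 times between libraries, and their part in which weak regions were called was not tested.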
